A study of Mus musculus with 20 samples.

Results

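The metabolic nuclear receptors of the liver were followed in tumors driven by Aldafermin+MYC, FGF19+MYC or sgTrp53+MYC and in liver. The 10 genes, chosen by symbol, were Nr1h4 (FXR), Nr0b2 (SHP), Nr5a2 (LRH-1), Nr1i2 (PXR), Nr1i3 (CAR), Ppara (PPARalpha), Nr1h3 (LXRalpha), Rxra (RXRalpha), Esrra (ERRalpha) and Nr3c1 (the glucocorticoid receptor, GR), out of 50559 genes in the count tables and 49 of the nuclear receptor family. All 10 passed the filter on low values (at least 1 CPM, a read count scaled to library size, in 5 or more libraries), with at least 51 reads for every member in every library.

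There were 20 libraries, 5 per group. The methods describe female C57BL/6J mice injected at 6 to 8 weeks of age and fasted for 5 h before collection. Plasmids for human FGF19, or for Aldafermin, an FGF19 analog altered at the N-terminal end, were delivered to hepatocytes by hydrodynamic gene transfer together with a MYC plasmid and the Sleeping Beauty transposase. The third tumor group received MYC and a CRISPR guide against Trp53 in place of the hormone, so that every tumor carried MYC. Each tumor library came from an individual tumor, the livers are labelled as non treated whereas the methods name an empty RFP plasmid, and each tumor was taken from a different mouse. FGF19+MYC mice were killed no later than 4 weeks after injection and Aldafermin+MYC livers were examined at 2 to 4 weeks. The times at which the sgTrp53+MYC tumors and the control livers were taken are not given in the sources used here.

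FXR is the bile acid receptor of hepatocytes and, as a partner of RXRalpha, switches on Nr0b2. SHP, its product, has no DNA binding domain and represses other receptors, among them LRH-1 at the bile acid synthesis genes Cyp7a1 and Cyp8b1. FGF19, secreted by the ileum in response to bile acids, represses the same enzymes through its receptor FGFR4, and the remaining members sense drugs and foreign compounds (PXR, CAR), fatty acids (PPARalpha), oxysterols (LXRalpha) and glucocorticoids (GR) or, for ERRalpha, control mitochondrial genes without a known hormone.

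The upstream sequences of 3 members are shown. Nr1h4 had the smallest adjusted p of the members between hormone and sgTrp53+MYC tumors (though not the largest difference), Nr1i3 had the largest fall against liver, and Nr0b2 varied most among FGF19+MYC and among sgTrp53+MYC tumors. Each line is the strand of the gene, 5′ to 3′, from 250 bases before the start of the canonical GENCODE M39 transcript on GRCm39. It is trimmed at the first base that any transcript has in an exon. In Nr1h4 and Nr1i3 the canonical start lies inside the annotated gene. Capitals mark CACGTG in Nr0b2 and Nr1i3 and AGGTCA (here on the other strand, as TGACCT) in Nr1h4.
Nr1h4, chr10:89342521-89342761, minus strand: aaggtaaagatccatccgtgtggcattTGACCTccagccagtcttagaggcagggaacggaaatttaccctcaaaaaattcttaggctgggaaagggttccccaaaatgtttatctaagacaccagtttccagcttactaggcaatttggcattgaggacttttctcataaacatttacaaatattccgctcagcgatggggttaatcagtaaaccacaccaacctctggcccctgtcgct
Nr0b2, chr4:133280428-133280677, plus strand: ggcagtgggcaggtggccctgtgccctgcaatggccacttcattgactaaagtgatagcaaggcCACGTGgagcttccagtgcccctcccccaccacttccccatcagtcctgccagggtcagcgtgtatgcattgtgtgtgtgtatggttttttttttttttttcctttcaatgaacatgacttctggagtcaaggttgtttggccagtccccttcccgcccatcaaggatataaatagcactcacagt
Nr1i3, chr1:171041289-171041505, plus strand: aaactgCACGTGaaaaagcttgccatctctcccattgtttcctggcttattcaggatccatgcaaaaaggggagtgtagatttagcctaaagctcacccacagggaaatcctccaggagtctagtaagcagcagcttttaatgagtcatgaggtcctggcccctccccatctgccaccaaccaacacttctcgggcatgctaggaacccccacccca

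The letters CACGTG, an E-box core, lay 186 bases before the start in Nr0b2 and 244 bases before it in Nr1i3, and in none of the other 8 members. They occurred on either strand in 6.30% of the 21584 upstream windows of 250 bases. AGGTCA, the hexamer shared by many nuclear receptors and contained in CAAGGTCA, was found in Nr1h4 alone among the members, 223 bases before the start, and in 13.1% of all windows. The longer forms CAAGGTCA and CAAAGTCCA were in none of the members and in 1.39% and 0.375% of windows. A match of letters describes the window and is not a measured binding site.

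Reads assigned to genes numbered 18004977 to 66354724 in the 20 libraries. The sgTrp53+MYC libraries were the deepest (54042455 to 66354724) and stood alone in a table of their own, in which 11.1% to 14.6% of reads were ambiguous between genes, against 3.03% to 6.30% in the others, so that table and tumor type cannot be told apart in any comparison with them. Trp53, the target of the guide, was at 18.7, 79.9, 35.4, 51.0 and 48.8 CPM in the sgTrp53+MYC tumors, below all 10 other tumors (90.8 to 176) and overlapping the livers (28.8 to 36.4). Of 10 hepatocyte markers, all 10 were lower than in liver in each tumor type, with a summed level of 6115 to 37683 CPM in tumors and 211399 to 268896 CPM in livers. In bulk tissue fewer hepatocytes and less of a transcript per hepatocyte cannot be told apart, which holds for every comparison with liver given here. Aldafermin+MYC tumor 4 and FGF19+MYC tumor 5 had the highest Alb levels of the tumors (14275 and 17173 CPM, against 731 to 7759 in the other 13). Aldafermin+MYC tumor 5, FGF19+MYC tumor 1 and sgTrp53+MYC tumor 1 had relatively more reads on transcripts under 1500 bases than on those over 5000 bases, by 0.80, 0.86 and 1.08 on the log2 scale from their group's mean, against -0.51 to 0.34 in the other 17 libraries.

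**Figure D1:**
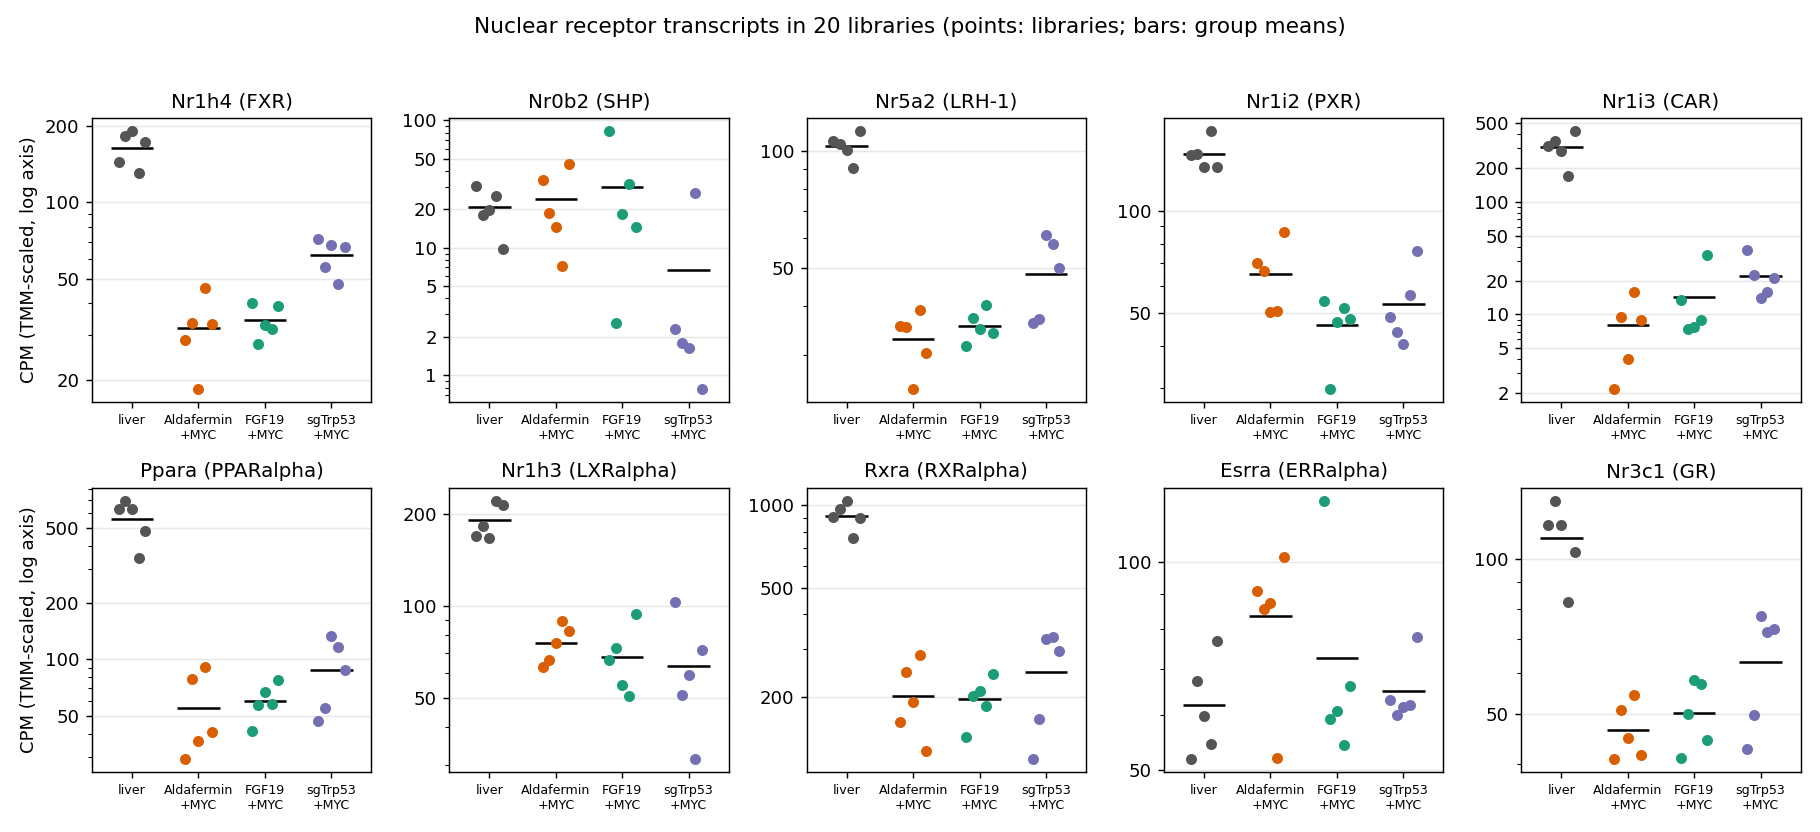
CPM of each receptor (TMM-scaled, log axis) in each of the 20 libraries, with the group mean as a bar. In 8 panels the 5 livers lie above all 15 tumors, whereas the groups overlap for Nr0b2 and Esrra, and Nr1h4 is the one panel in which the sgTrp53+MYC tumors lie above all 10 other tumors.

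Each tumor type was first set against the same 5 livers, which the 3 comparisons share. In each of them 8 of 10 receptors fell and none rose, all but Nr0b2 and Esrra (edgeR's quasi-likelihood test, Benjamini-Hochberg over 14333 genes, threshold 0.05). Among all genes tested, 31.9% fell with Aldafermin+MYC, 32.9% with FGF19+MYC and 33% with sgTrp53+MYC, and 38.4%, 36.9% and 36.9% rose. The median log2 fold change of the members was -1.49, -1.60 and -1.53, against 0.13, 0.06 and 0.07 over all genes. For the same 8 members every tumor was below every liver, which was so for 27.5%, 30.1% and 27.4% of all genes tested. The scaling matters here: TMM factors were 0.615 to 0.682 in livers and 0.997 to 1.31 in tumors, and without them the median of all genes was 0.97, 0.91 and 0.95, with 5, 7 and 6 members lower and Esrra higher in the 3 comparisons. Of all genes called, 45.4%, 47.1% and 47.2% were lower with TMM and 21.8%, 22.7% and 22.1% without it. Nr1h4, Nr1i3, Ppara and Rxra were the 4 members that were lower and called against liver in all 3 tumor types under every alternative run.

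**Figure D2:**
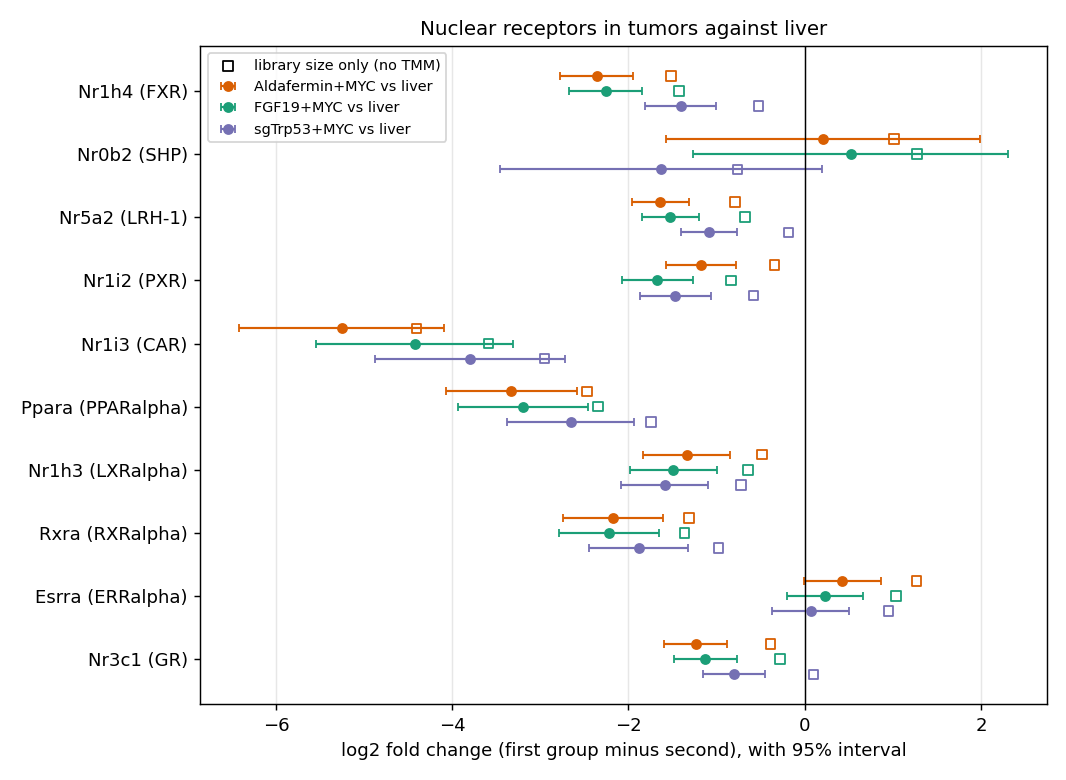
Log2 fold change of each receptor against liver in the 3 tumor types (points, with 95% intervals), with open squares for the same values scaled by library size alone. Nr1i3 lies farthest from 0 with points from -5.25 to -3.80, Esrra and Nr0b2 have intervals that include 0, and every square lies to the right of its point, with those of Nr3c1 at -0.39, -0.28 and 0.10.

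Nr1i3, which encodes CAR, the phenobarbital-responsive regulator of drug metabolism (chr1:171041506-171048270, 8 exons), was at 312, 346, 284, 168 and 424 CPM in livers. It was at 2.19, 9.40, 4.06, 15.8 and 8.90 CPM in Aldafermin+MYC tumors, at 13.5, 7.46, 7.72, 9.01 and 33.7 CPM in FGF19+MYC tumors, and at 37.2, 22.4, 14.1, 15.7 and 20.9 CPM in sgTrp53+MYC tumors. All tumors were below all livers, and the highest value of the Aldafermin+MYC and of the FGF19+MYC group was in its tumor of highest Alb level. The fall was 38.2-fold (log2 -5.25 ± 0.56, SE, adjusted p = 8.8e-08) with Aldafermin+MYC, 21.5-fold (-4.43 ± 0.53, adjusted p = 5.3e-07) with FGF19+MYC and 13.9-fold (-3.80 ± 0.52, adjusted p = 2.4e-06) with sgTrp53+MYC. Exons of Nr1i3 share 3501 of 4644 bases with Tomm40l on the opposite strand, and Tomm40l went the other way, with 10.9 to 22.3 CPM in livers and 24.3 to 64.3 CPM in tumors. The strand setting of the counting is not given in the sources used here, and its part in these values was not tested.

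Ppara, the fasting receptor that drives fatty acid oxidation (chr15:85618656-85687067, 8 exons), was at 625, 691, 626, 346 and 479 CPM in livers. It was at 29.5, 78.1, 36.5, 90.9 and 40.8 CPM in Aldafermin+MYC tumors, at 41.4, 57.3, 67.1, 57.8 and 77.5 CPM in FGF19+MYC tumors, and at 47.0, 54.7, 133, 116 and 87.9 CPM in sgTrp53+MYC tumors. The highest tumor, sgTrp53+MYC tumor 3, was well below the lowest liver, liver 4. The log2 fold changes were -3.33 ± 0.35 (adjusted p = 9.4e-08), -3.20 ± 0.35 (adjusted p = 1.5e-07) and -2.66 ± 0.34 (adjusted p = 1.2e-06) in edgeR's test. Of its exon bases, 27.4% are shared with Cdpf1 on the opposite strand.

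Rxra, the partner with which FXR, PXR, CAR, PPARalpha and LXRalpha bind DNA (chr2:27566452-27653330, 10 exons), was at 903, 966, 1034, 758 and 900 CPM in livers. The tumors ranged from 127 to 284 CPM with Aldafermin+MYC, from 143 to 243 CPM with FGF19+MYC and from 119 to 332 CPM with sgTrp53+MYC. Its log2 fold changes were -2.18 ± 0.27, -2.22 ± 0.27 and -1.88 ± 0.27, with adjusted p of 7.7e-07, 6.3e-07 and 4.1e-06 in edgeR's test. Rxrb, the second RXR gene, rose slightly in all 3 tumor types (0.32, 0.34 and 0.40 on the log2 scale, chosen after its values were seen), and per kilobase of transcript the share of Rxra among the 3 RXR genes was 84.4% ± 2.33 (SD, n = 5) in livers and 53.7% ± 8.07, 53.3% ± 6.46 and 56.7% ± 8.44 in Aldafermin+MYC, FGF19+MYC and sgTrp53+MYC tumors. The ranges of that share did not overlap between livers (80.7% to 87.2%) and tumors (43.0% to 65.8%).

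Nr1h4 (FXR, chr10:89289742-89369497, 9 exons) was at 143, 182, 191, 131 and 172 CPM in livers. It was at 28.6, 33.4, 18.4, 46.0 and 33.3 CPM in Aldafermin+MYC tumors, at 40.1, 27.8, 32.8, 31.8 and 39.1 CPM in FGF19+MYC tumors, and at 71.8, 55.8, 67.8, 47.5 and 66.6 CPM in sgTrp53+MYC tumors. The 4 groups formed 3 levels, with the livers highest, the sgTrp53+MYC tumors between and the other 2 tumor types overlapping at the bottom. Against liver Nr1h4 fell 5.13-fold (log2 -2.36 ± 0.20, adjusted p = 3.7e-09), 4.78-fold (-2.26 ± 0.20, adjusted p = 6.5e-09) and 2.65-fold (-1.41 ± 0.19, adjusted p = 2.7e-06). With library size alone the values were -1.52, -1.43 and -0.53, all called. Over the 20 libraries the genes whose log2 CPM most resembled that of Nr1h4, among 9392 genes compared, were Mospd2 (Pearson's r = 0.985), Adtrp (r = 0.981) and Fggy (r = 0.977), a description in which livers and tumors are pooled.

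The other 4 receptors that fell lay within a narrower range. Nr5a2 encodes LRH-1, the activator of bile acid synthesis genes (chr1:136770303-136888186, 7 exons), and had 90.3 to 112 CPM in livers and 24.6 to 61.0 CPM in tumors, with log2 fold changes of -1.64, -1.52 and -1.08. Nr1i2, the gene of PXR, which induces Cyp3a genes in response to drugs (chr16:38068685-38115216, 9 exons), had 135 to 172 CPM in livers and 29.9 to 86.7 CPM in tumors, with -1.18, -1.67 and -1.47. Nr1h3, the gene of LXRalpha, the oxysterol receptor of lipid synthesis and cholesterol export (chr2:91014394-91033417, 10 exons), had 166 to 220 CPM in livers and 31.5 to 103 CPM in tumors, with -1.34, -1.49 and -1.59. These 3 genes showed no overlap between livers and tumors.

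Nr3c1, the glucocorticoid receptor gene, was at 82.4 to 129 CPM in livers and 40.9 to 77.5 CPM in tumors. Its log2 fold changes of -1.24, -1.13 and -0.80 passed edgeR's test (adjusted p of 2.8e-06, 8.5e-06 and 0.00032), but with scaling by library size alone they were -0.39, -0.28 and 0.10 and passed in none. Under that scaling Nr5a2 in sgTrp53+MYC tumors (-0.18) and Nr1i2 and Nr1h3 in Aldafermin+MYC tumors (-0.34 and -0.49) were not called either.

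Esrra and Nr0b2 did not pass the test against liver in any tumor type. Esrra, whose product ERRalpha drives mitochondrial genes (chr19:6888338-6899336, 7 exons), was at 51.9, 67.2, 59.8, 54.4 and 76.9 CPM in livers and at 90.9, 85.6, 87.2, 51.99 and 102 CPM in Aldafermin+MYC tumors. It was at 123, 59.2, 60.9, 54.4 and 66.2 CPM in FGF19+MYC tumors and at 63.1, 60.1, 61.6, 62.1 and 78.0 CPM in sgTrp53+MYC tumors. Aldafermin+MYC tumor 4 was the one of its group within the range of the livers. The log2 fold changes were 0.43 (95% interval -0.00 to 0.86), 0.23 (-0.21 to 0.66) and 0.07 (-0.37 to 0.50), and with library size alone they were 1.27, 1.04 and 0.95 and called in all 3. The first was called in 5 of 21 alternatives, library size alone among them. In edgeR's test it was also called without Aldafermin+MYC tumor 4 (0.56, adjusted p = 0.018) and without liver 5 (0.52, adjusted p = 0.045). The same held without the filter on low counts (0.61, adjusted p = 0.027) and without the 2 tumors of highest Alb level (0.56, adjusted p = 0.021). Trmt112 lies on the opposite strand over 29.6% of Esrra's exon bases.

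Nr0b2, whose product SHP is the repressor that FXR induces (chr4:133280678-133283847, 2 exons), was at 30.7, 18.2, 19.7, 25.7 and 9.84 CPM in livers. It was at 33.9, 18.8, 14.6, 7.19 and 45.5 CPM in Aldafermin+MYC tumors and at 82.2, 2.59, 18.4, 31.7 and 14.7 CPM in FGF19+MYC tumors. In the sgTrp53+MYC tumors 4 libraries lay at 2.31, 1.79, 1.64 and 0.78 CPM and tumor 4 at 27.0 CPM, within the range of the livers. The log2 fold changes against liver were 0.21 (95% interval -1.57 to 1.99), 0.52 (-1.26 to 2.31) and -1.63 (-3.46 to 0.19, adjusted p = 0.10), with intervals too wide to say that levels were alike. Without sgTrp53+MYC tumor 4 the third was -3.67 (adjusted p = 0.00031). Only that 1 of the 10 fits leaving out a library called it, and the values ranged from -3.67 to -1.34. The coefficient of variation of Nr0b2 was 64.5% in Aldafermin+MYC tumors, next to Nr1i3 at 65.8%, 104% in FGF19+MYC tumors, 169% in sgTrp53+MYC tumors and 38.0% in livers, the highest of the 10 members in the last 3 groups. The 3 genes most like Nr0b2 over the 20 libraries were Scarb1 (r = 0.866), Apom (r = 0.859) and Osgin1 (r = 0.852).

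Per kilobase of transcript, the mean levels in livers were ordered Nr1i3 (204 CPM per kb), Rxra (167), Ppara (156), Nr1h3 (89.8), Nr1h4 (70.7), Nr1i2 (56.8), Esrra (27.5), Nr5a2 (19.9), Nr0b2 (18.2) and Nr3c1 (16.9). Only the neighbors Nr1i2 and Esrra, and Esrra and Nr5a2, had ranges that did not overlap. In Aldafermin+MYC tumors Esrra (37.0), Rxra (36.9) and Nr1h3 (35.5) came first and Nr1i3 last (5.35). In FGF19+MYC tumors Rxra (35.9) was first and Nr5a2 (6.92) last, and in sgTrp53+MYC tumors Rxra (45.1) was first and Nr0b2 (5.87) last. No neighbors in the order were apart in any tumor type.

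Setting Aldafermin+MYC against FGF19+MYC tumors asked whether the analog and the hormone gave different tumors. None of the 10 receptors was called, as 0% of the 14333 genes were, and no receptor had groups that did not overlap (1.46% of all genes). At an unadjusted p under 0.05 there was 1 member, Nr1i2, and 7.31% of all genes. DESeq2 and edgeR's likelihood ratio test also called 0 members, and 96 and 59 genes in all. Nr1i2 was at 70.4, 66.6, 50.2, 50.7 and 86.7 CPM with Aldafermin and at 54.1, 29.9, 47.1, 51.6 and 47.9 CPM with FGF19, a log2 difference of 0.49 (95% interval 0.10 to 0.89, adjusted p = 0.52). For Nr1h4 the difference was -0.10 (-0.50 to 0.29), for Nr5a2 -0.11 (-0.43 to 0.20) and for Nr3c1 -0.11 (-0.46 to 0.24). The intervals were far wider for Nr0b2 (-0.31, from -2.09 to 1.46) and Nr1i3 (-0.83, from -1.82 to 0.16), for which a difference of several-fold was not excluded by these libraries.

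**Figure D3:**
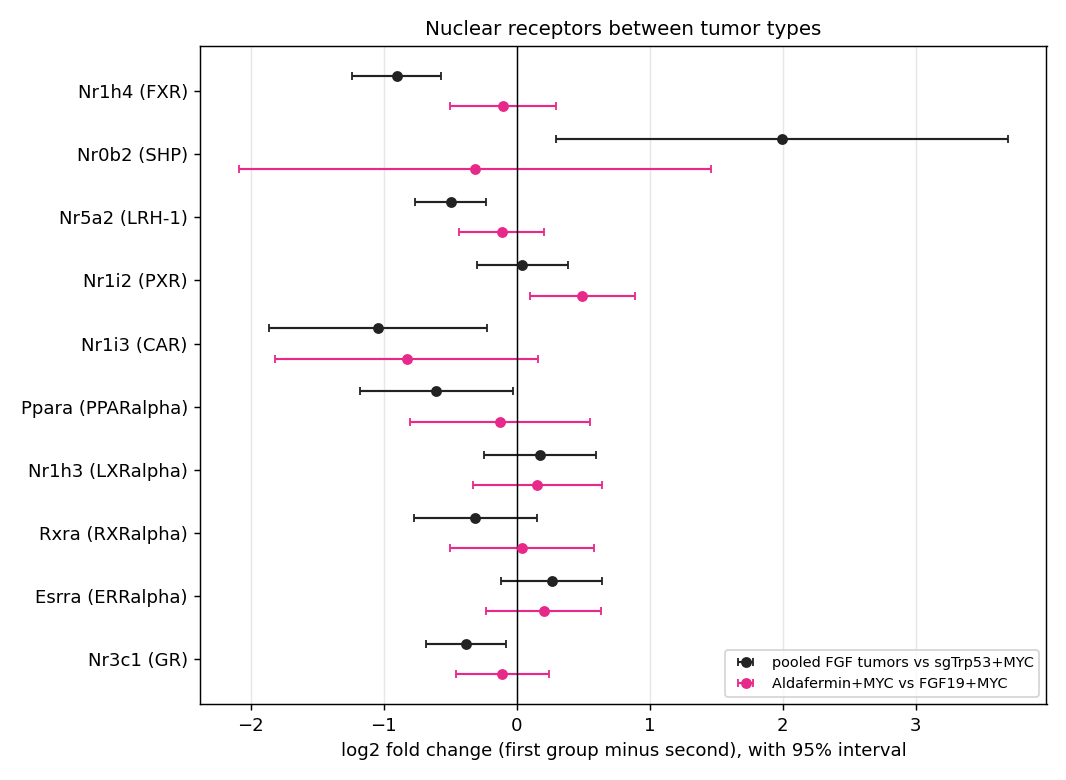
Log2 fold change of each receptor, with 95% intervals, for the mean of Aldafermin+MYC and FGF19+MYC tumors minus sgTrp53+MYC tumors (black) and for Aldafermin+MYC minus FGF19+MYC tumors (pink). In black, Nr1h4 (-0.90) and Nr5a2 (-0.50) passed the threshold, and the interval of Nr0b2 is the widest.

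Tumors with either hormone were then set, as the mean of both groups, against the sgTrp53+MYC tumors. Of the 10 receptors 2 were called, both lower, Nr1h4 and Nr5a2, where 12.1% of all genes were lower, 11.6% higher and 23.7% called in either direction. The share of members called is near that background. The count was 4 without Aldafermin+MYC tumor 4, Aldafermin+MYC tumor 5 or sgTrp53+MYC tumor 1, 5 with DESeq2 and 1 for FGF19+MYC tumors alone. The median over the members was -0.35, against -0.02 over all genes.

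Nr1h4 was 1.87-fold lower with the hormones (33.1 against 61.9 CPM, log2 -0.90 ± 0.16, edgeR adjusted p = 0.00062). All 10 of these tumors were below all 5 sgTrp53+MYC tumors, which held in this direction for 2.42% of all genes tested. Each hormone alone gave a like value, -0.95 ± 0.19 for Aldafermin+MYC (adjusted p = 0.0023, with 7.53% of all genes lower) and -0.85 ± 0.19 for FGF19+MYC (adjusted p = 0.0056, with 7.78% of all genes lower). Nr1h4 was called in all 28 alternatives, at -1.01 to -0.80, and its exons share no base with another annotated gene. Markers moved in the same comparison, where 11.6% of all genes were higher and 12.1% lower in the hormone tumors. Of the hepatocyte markers 6 of 10 were higher and 1 lower, and 4 of 7 Kupffer cell and macrophage markers were higher. Of the biliary markers 4 of 5 were lower. Their sum was uneven among sgTrp53+MYC tumors (3.44 to 779 CPM, median 28.4), with medians of 18.2 CPM for Aldafermin+MYC and 39.1 CPM for FGF19+MYC. The part of all these markers in the differences of Nr1h4 and Nr5a2 was not tested.

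Nr5a2 was at 35.7, 35.3, 24.6, 39.0 and 30.3 CPM in Aldafermin+MYC tumors and at 31.7, 37.4, 35.0, 40.3 and 34.2 CPM in FGF19+MYC tumors. In sgTrp53+MYC tumors it was at 36.4, 37.2, 61.0, 57.7 and 50.05 CPM, so that tumors 1 and 2 lay within the range of the others. In that group tumors 1 and 2 also had the lowest Rxra, Ppara and Nr3c1, and the highest Nr1i3. Their column labels stand apart in number from those of the other sgTrp53+MYC tumors. What the labels mean is not given in the sources used here, and their part in these values was not tested. The difference in Nr5a2 between hormone and sgTrp53+MYC tumors was 1.41-fold (log2 -0.50 ± 0.13, adjusted p = 0.0091) in edgeR's test, and FGF19+MYC tumors taken alone missed the threshold (-0.44, adjusted p = 0.055).

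The levels of Nr5a2 and other receptors with long transcripts moved with the balance of short and long transcripts in each library. As deviations from the group mean over 20 libraries, Spearman's rho with that index was -0.80 for Nr3c1 (6479 bases), -0.79 for Rxra (5473 bases), -0.68 for Ppara (3551 bases) and -0.61 for Nr5a2 (5157 bases), against 0.12 for Nr1h4 (2318 bases) and 0.19 for Nr0b2 (1141 bases). Among the other members rho was 0.34 for Esrra, 0.32 for Nr1i3, 0.32 for Nr1h3 and 0.22 for Nr1i2. Nr3c1, Rxra and Nr5a2 belong to the transcripts over 5000 bases that define the index, so a negative rho is in part built in for them. All these values are descriptions, since all genes of a library share its RNA and preparation. Nr3c1 was -0.38 in the comparison of hormone and sgTrp53+MYC tumors and not called (adjusted p = 0.058), but it was called in 9 of 28 alternatives, which ranged from -0.50 to -0.13. These were DESeq2, RLE and upper quartile scaling, no filter on low counts, leaving out Aldafermin+MYC tumor 4 or 5 or sgTrp53+MYC tumor 1 or 2, and leaving out the 3 libraries of highest index (-0.49, adjusted p = 0.013). The part of RNA quality and preparation in these values was not tested.

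**Figure D4:**
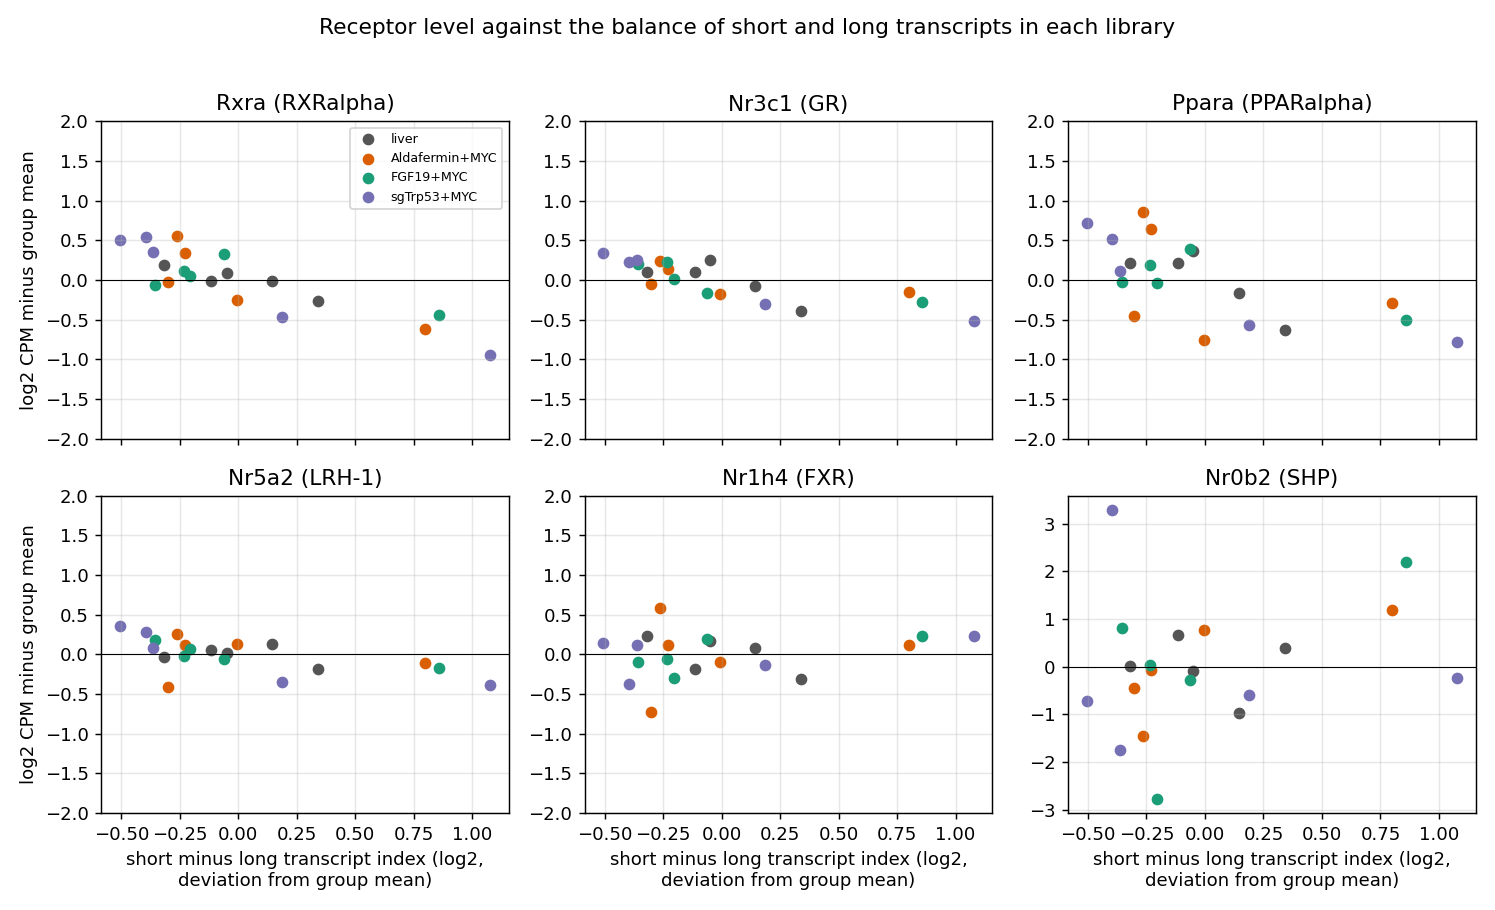
Log2 CPM of 6 receptors minus the mean of their group, against the index of short minus long transcripts of the library (log2, deviation from the group mean), 1 point per library. Rxra, Nr3c1, Ppara and Nr5a2 decline toward the 3 libraries at 0.80 to 1.08 on the right, and Nr1h4 and Nr0b2 show no such decline (the panel of Nr0b2 has a wider axis). Of these libraries, Aldafermin+MYC tumor 5 and FGF19+MYC tumor 1 have the highest Nr0b2 of their groups.

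The remaining receptors did not pass the test between hormone and sgTrp53+MYC tumors. Nr0b2 was 2.00 ± 0.81 higher on the log2 scale with the hormones (26.9 against 6.70 CPM, adjusted p = 0.082), and without sgTrp53+MYC tumor 4 the value was 4.04 (adjusted p = 0.00087). Of the 15 fits that each left out 1 library, only that 1 called Nr0b2, and the values ranged from 1.58 to 4.04. Tumor 4 was the one of its group with high Nr0b2, so leaving it out also narrows the spread. Nr1i3 was at -1.04 ± 0.39 (adjusted p = 0.061) and was called for Aldafermin+MYC tumors alone (-1.46, adjusted p = 0.041) but not for FGF19+MYC tumors alone (-0.63, adjusted p = 0.39). In all, Nr1i3 was called in 10 of 28 alternatives, which ranged from -1.54 to -0.63. It passed with DESeq2 (-1.08), the likelihood ratio test (-1.04), no filter (-1.16), the replicate block (-1.13) and GC and length offsets (-1.19), and without Aldafermin+MYC tumor 4 (-1.24), Aldafermin+MYC tumor 5 (-1.13) or FGF19+MYC tumor 5 (-1.34). With neither of the 2 tumors of highest Alb level it was -1.54 (adjusted p = 0.0026). Nr0b2 was called in 4 of 28. Ppara (-0.61, adjusted p = 0.12) passed without sgTrp53+MYC tumor 1 (-0.77) and without the 2 tumors of highest Alb level (-0.79). Rxra passed with the offsets alone (-0.43), and Rxra (-0.31), Esrra (0.26), Nr1h3 (0.17) and Nr1i2 (0.04) had unadjusted p of 0.18, 0.16, 0.40 and 0.80.

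The genes known to respond to FXR and SHP were read beside them. Of 10 FXR targets 9 were tested, and 8, 7 and 8 of them were lower than in liver in Aldafermin+MYC, FGF19+MYC and sgTrp53+MYC tumors. Of all genes tested, 31.9%, 32.9% and 33% were lower. Abcb11, the bile salt export pump, went from 1109 CPM in livers to 75.3 and 69.0 CPM in the hormone tumors, and Abcb4, the phospholipid exporter, from 519 to 80.2 and 68.5 CPM. The one FXR target that rose in all 3 was Slc51b, a subunit of the basolateral bile acid exporter, named after its values were seen, which was at 0.66 to 2.03 CPM in livers, 3.54 to 47.5 CPM with Aldafermin+MYC, 0.58 to 42.7 CPM with FGF19+MYC and 4.53 to 88.3 CPM in sgTrp53+MYC tumors. Between hormone and sgTrp53+MYC tumors 3 FXR targets were higher and 2 lower, where 11.6% of all genes were higher and 12.1% lower. Among these targets were Pltp (1.37), Sdc1 (0.87) and the bile acid conjugating enzyme Baat (-1.80).

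Of the 3 genes listed as repressed by SHP, 2 were lower in the hormone tumors than in sgTrp53+MYC tumors, where 12.1% of all genes were lower. Cyp7a1, the rate-limiting enzyme of bile acid synthesis, was at 199, 218, 534, 117 and 397 CPM in livers and at 92.6, 37.2, 72.8, 4.53 and 61.3 CPM in sgTrp53+MYC tumors. It was at 0.0243, 0.174, 0, 28.8 and 0 CPM in Aldafermin+MYC tumors and at 0.335, 1.53, 0.314, 0.176 and 3.30 CPM in FGF19+MYC tumors, of which the highest of each group is the tumor of highest Alb level. Against sgTrp53+MYC tumors it was -4.39 ± 1.09 on the log2 scale (adjusted p = 0.0071), and Cyp8b1, the enzyme that makes cholic acid, -2.16 ± 0.75 (adjusted p = 0.044). Slc10a1, the bile acid uptake carrier, was not called (-0.51, adjusted p = 0.14). In the sgTrp53+MYC group, tumor 4, the one with high Nr0b2, had the lowest Cyp7a1 and the lowest Cyp8b1 (5.31 CPM, against 13.8 to 89.6 CPM in the other 4). That is a single tumor, and a relation of these genes with Nr0b2 was not tested within this group.

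Among the 10 tumors with a hormone, Nr0b2 was compared with all 12 tested genes of these 2 lists, a step chosen after the values were seen. Slc51b followed Nr0b2 closely (Pearson's r = 0.95, permutation p = 8.0e-05, adjusted over the 12 genes p = 0.00096, Spearman's rho = 0.95, permutation p = 0.00011). Without FGF19+MYC tumors 1 and 2, the 2 farthest from the median of Nr0b2, r was 0.85 (exact permutation p = 0.0066, n = 8), and without the high-index tumors of these groups it was 0.95 (exact permutation p = 0.00060, n = 8). Abcb11 had r = 0.81 and rho = 0.78 (permutation p = 0.0053 and 0.010, adjusted p = 0.032 and 0.061), but r was 0.41 (exact permutation p = 0.32) without FGF19+MYC tumors 1 and 2. Leaving out the tumors farthest in Nr0b2 narrows its range, so whether the relation holds among the rest cannot be told. Without the high-index tumors r was 0.80 (exact permutation p = 0.045, n = 8). Without FGF19+MYC tumor 2 alone it was 0.57 (exact permutation p = 0.11). Cyp8b1 and Cyp7a1 had r = -0.61 and -0.57 (permutation p = 0.064 and 0.090, adjusted p = 0.20 for both). Without FGF19+MYC tumors 1 and 2 these were -0.73 and -0.78 (exact permutation p = 0.042 and 0.019, not adjusted, n = 8). Without the high-index tumors they were -0.61 and -0.59 (exact permutation p = 0.12 for both, n = 8). No correlation was computed within a single group, since each has 5 tumors and fewer than 6 samples were not correlated. Across 9392 genes of at least 10 CPM, only Abcb1a had a higher r with Nr0b2 than Slc51b in these tumors.

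**Figure D5:**
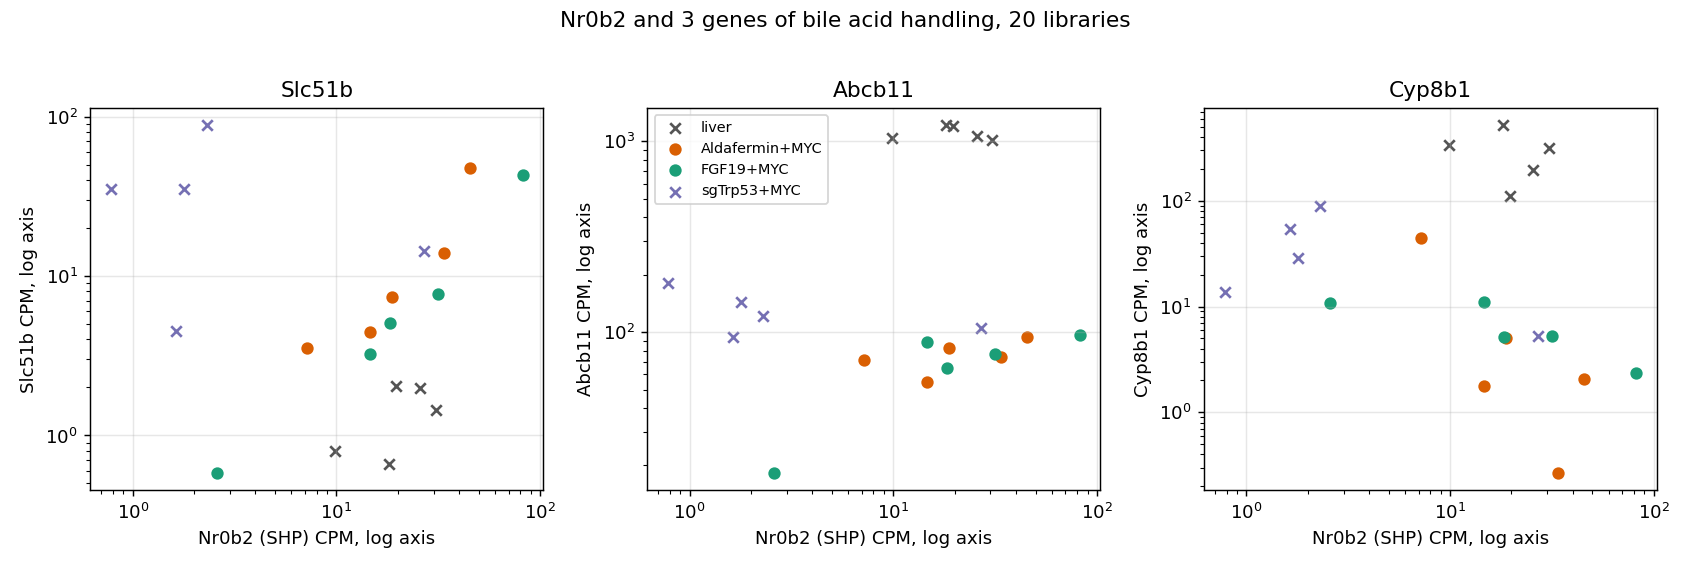
CPM of Slc51b, Abcb11 and Cyp8b1 against Nr0b2 CPM (both axes log) in 20 libraries, with hormone tumors as circles and the other groups as crosses. The circles rise together for Slc51b, FGF19+MYC tumor 2 is the lowest circle for Abcb11 at 18.3 CPM, and the sgTrp53+MYC tumors other than the one at 27.0 CPM lie to the left with Slc51b at 4.53 to 88.3 CPM.

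The target lists of the other receptors were read by the same counts, against the shares of all genes given above. Of 17 PPARalpha targets 16 fell in each tumor type (Aldafermin+MYC, FGF19+MYC and sgTrp53+MYC), with a median log2 difference from liver of -2.85, -2.88 and -3.67. Of 4 PXR targets 3 fell and 1 rose in each tumor type, with Cyp3a11 at 3486 CPM in livers and 80.5, 81.7 and 213 CPM in the tumors. Of 5 CAR targets 4 fell and 1 rose, with Cyp2b10, the classic phenobarbital-induced gene, at 43.7 CPM in livers and 0.62, 0.62 and 0.60 CPM in the tumors, and Gadd45b higher in each (16.2, 15.6 and 31.9 CPM, against 6.59 CPM in livers).

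Of 8 LXRalpha targets 6, 7 and 7 fell, among them the sterol exporters Abcg5 (-2.71, -3.25 and -2.67) and Abcg8 (-2.87, -3.23 and -2.61). Of 10 GR targets 6, 5 and 6 fell and 2, 0 and 0 rose, with Dusp1 at 68.8 CPM in livers and 13.4, 13.4 and 9.06 CPM in tumors. Of 7 ERRalpha targets 3, 2 and 4 rose, where 38.4%, 36.9% and 36.9% of all genes did, and 1 fell in each. Idh3a, a subunit of a citric acid cycle enzyme, rose by 1.79, 1.58 and 2.00. Among the LRH-1 targets Cyp8b1 was lower in each tumor type, and Scarb1, the HDL receptor, was lower in sgTrp53+MYC tumors (-0.87) with differences of -0.09 and -0.26 in the hormone tumors that did not pass.

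Of the 39 other nuclear receptor genes 25 were tested, and 16, 16 and 15 fell while 2, 2 and 3 rose against liver, with medians of -0.85, -0.99 and -0.89. The lowest adjusted p in each tumor type was that of Rora, a circadian receptor, at 87.6 CPM in livers and 9.45, 15.7 and 14.2 CPM in tumors, and Nr1d1 (REV-ERBalpha) went from 225 to 22.3, 31.7 and 27.4 CPM. Of 13 coregulators 3, 4 and 3 fell and 1, 1 and 2 rose, where 31.9%, 32.9% and 33% of all genes fell and 38.4%, 36.9% and 36.9% rose. Ncoa1, a coactivator, was lower in hormone tumors than in sgTrp53+MYC tumors (8.04 against 19.1 CPM, -1.25 ± 0.19, adjusted p = 0.00015), and Hdac3, the deacetylase of the NCoR complex, was higher in every tumor type than in livers (88.5, 81.0 and 80.4 against 53.9 CPM).

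Markers of other cells differed between the groups too, and their part in the receptors' values was not tested. The summed level of 7 Kupffer cell and macrophage markers was 377 to 581 CPM in livers, 101 to 329 CPM with Aldafermin+MYC, 232 to 441 CPM with FGF19+MYC and 54.3 to 139 CPM in sgTrp53+MYC tumors. The 6 endothelial markers summed to 220 to 357 CPM in livers and 51.9 to 178 CPM in tumors, and the 6 stellate cell and fibroblast markers to 304 to 444 CPM in livers and 111 to 1522 CPM in tumors. The sum of 5 biliary markers reached 779 CPM in one sgTrp53+MYC tumor, against at most 124 CPM in livers. Of 5 T and NK cell markers 1 was tested and not called, and Trac was at 3 reads or fewer in all groups. No marker of the other lists was at 3 reads or fewer throughout a group.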

How the data were processed

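RNA from 15 individual tumors and 5 livers was sequenced (TruSeq Stranded mRNA). Per the labels and methods, the authors demultiplexed with bcl2fastq 2.20.0.422, aligned to mm39 with HISAT2 and counted reads on RefSeq genes with htseq-count, and they deposited raw counts per gene in 2 tables, neither normalized nor filtered. The version of HISAT2 and the strand setting of the counting are not given in the sources used here. Groups were taken from sample titles, and 0 sample columns were left out. Tumors were each taken from a different mouse, as the study states.

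The 5 summary lines were removed, and 14333 genes (1 CPM or more in 5 libraries) were tested in R 4.3.3 with edgeR 4.0.16 (TMM, quasi-likelihood, 1 model of 4 groups, threshold 0.05) after a check on simulated counts. Levels are TMM-scaled CPM, and log2 CPM used a prior count of 2. Counting error alone was not the limit, since each member had at least 51 reads. No 2 libraries of a group agreed within sampling noise (chi-square over degrees of freedom at least 15.0). Correlations used 100000 permutations, or all of them under 10 libraries. DESeq2 1.42.0, edgeR's likelihood ratio test, other scalings and filters, a replicate block, GC and length offsets, fewer groups and leaving out each library were tried as alternatives. Scaling by library size, leaving out the 3 high-index or the 2 high-albumin libraries and the Nr0b2 correlations were chosen after seeing the data.

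The members and lists were chosen with earlier results of these data known. Named genes are the members, up to 3 genes of each list with the smallest adjusted p in a comparison, the 3 genes most like Nr1h4 and Nr0b2, Trp53 and defining markers. Results of some list genes are not reported here. Slc51b, Rxrb, Abcb1a and genes overlapping a member were named after their values were seen. Coordinates and upstream sequences are from GENCODE M39 on GRCm39, the assembly of mm39, whereas counting used RefSeq.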

Additional observations from a re-analysis of the deposited data

Results flagged for a closer look

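In a group of 5 libraries, a highest or lowest value far from the rest (Dixon's ratio above 0.71, on unlogged CPM) occurred in 4 of the 40 combinations of receptor and group. For independent, normally distributed values this rule flags about 1 in 20 groups, or 2 of 40. Unlogged CPM of receptors measured in the same libraries need not follow that rate. Nr0b2 was at 27.0 CPM in sgTrp53+MYC tumor 4, against 0.78 to 2.31 CPM in the other 4 (ratio 0.94). Nr1i3 was at 33.7 CPM in FGF19+MYC tumor 5, against 7.46 to 13.5 CPM (ratio 0.77), in the tumor of highest Alb level. Esrra was at 123 CPM in FGF19+MYC tumor 1, against 54.4 to 66.2 CPM (ratio 0.83), in a tumor of high short-transcript index. Esrra was at 78.0 CPM in sgTrp53+MYC tumor 5, against 60.1 to 63.1 CPM (ratio 0.83).

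The change from liver differed between the tumor types for 2 receptors. For Nr1h4 the difference between hormone and sgTrp53+MYC tumors was -0.90 on the log2 scale and for Nr5a2 -0.50, both tested as the difference itself in edgeR's model, with the livers common to both sides.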

How the results depend on the processing

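Against liver the number of receptors called (8 in each tumor type) stayed within 8 to 9, 8, and 8 to 9 when 1 library at a time was left out, and between Aldafermin+MYC and FGF19+MYC tumors it stayed at 0. Between hormone and sgTrp53+MYC tumors it was 2, and 2 to 4 when each library was left out, 5 with DESeq2, 4 with edgeR's likelihood ratio test, without the filter, with GC and length offsets and without the 2 high-albumin libraries, and 1 for FGF19+MYC tumors alone. The numbers in the sample titles did not pair the libraries (30 same-number pairs with correlations of -0.333 to 0.333, 6 over 0.1); with the replicate block 4 receptors were called there, Nr0b2 against liver in sgTrp53+MYC tumors became -2.43 (adjusted p = 0.024), and calls over all genes went from 3399 to 3120. For Nr0b2 the value between hormone and sgTrp53+MYC tumors was called with DESeq2 (1.99), the likelihood ratio test (2.00), the block (2.69) and without sgTrp53+MYC tumor 4 (4.04).

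Signs changed only for values that were not called, except Nr3c1 in sgTrp53+MYC tumors against liver, which became 0.10 with library size alone. Leaving out 1 library at a time, the values between Aldafermin+MYC and FGF19+MYC tumors ranged from -0.27 to 0.041 for Nr1h4, -0.71 to 0.51 for Nr0b2, -0.38 to 0.032 for Ppara and -0.11 to 0.15 for Rxra. Nr1i2 ranged from -0.062 to 0.21 between hormone and sgTrp53+MYC tumors. Against liver, Nr0b2 ranged from -0.081 to 0.44 in Aldafermin+MYC and from -0.30 to 0.82 in FGF19+MYC tumors, and Esrra from -0.045 to 0.32 in FGF19+MYC and from -0.0079 to 0.16 in sgTrp53+MYC tumors. Negative values of Nr0b2 in FGF19+MYC tumors came without tumor 1. Between Aldafermin+MYC and FGF19+MYC tumors, Nr0b2 became 0.32 with the block and 0.10 without the 3 high-index libraries, and Rxra -0.026 without the high-albumin libraries. Between hormone and sgTrp53+MYC tumors, Nr1i2 became -0.060 without the filter, -0.044 with the offsets, -0.0063 with library size alone, -0.13 without the high-index libraries and -0.20 for FGF19+MYC alone, and Nr1h3 -0.056 with the offsets. Against liver, Nr0b2 in Aldafermin+MYC tumors became -0.046 with the offsets and -0.20 without the high-index libraries, without which it was -0.30 and Esrra -0.042 in FGF19+MYC tumors. The causes were not tested. The spread among 5 libraries limits Nr0b2 and Nr1i3 most, and every member had at least 51 reads in each library.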

Other observations

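Within pairs of related receptors, the balance per kilobase differed between livers and tumors in opposite directions. Ppara made up 94.4% ± 1.24 (SD, n = 5) of the 3 PPAR genes in livers and 73.9% ± 10.9, 77.4% ± 3.36 and 80.3% ± 9.22 in Aldafermin+MYC, FGF19+MYC and sgTrp53+MYC tumors, with no overlap between livers (92.5% to 95.6%) and any tumor (60.2% to 87.2%). Nr3c1 made up 79.8% ± 5.01 of Nr3c1 and Nr3c2 in livers and 86.5% ± 2.05, 89.2% ± 2.31 and 88.2% ± 2.65 in the tumors. Nr1h3 made up 72.0% ± 2.50 of the 2 LXR genes in livers and 64.8% ± 6.38, 64.4% ± 3.01 and 66.1% ± 10.5 in the tumors. For both genes the livers overlapped with Aldafermin+MYC and sgTrp53+MYC tumors but not with FGF19+MYC tumors. In the latter Nr3c1 was at 87.0% to 92.9% (livers 74.9% to 85.2%) and Nr1h3 at 59.9% to 68.0% (livers 68.2% to 74.5%). These shares were described and not tested.

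The upstream windows of the members differed in base composition, from 40.8% G and C in Nr1i2 to 80.8% in Ppara, around a median of 53.2% over all windows. Ppara, Rxra, Esrra and Nr3c1 had 19 or more CpG in 250 bases, and the other 6 members had 8 or fewer.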
